A study of Equus caballus with 32 samples.

Results

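Synovium from horses given an intra-articular polyacrylamide hydrogel (iPAAG) was compared with synovium from control horses at week 10 after joint injury. The comparison used 16 of the 32 libraries of the series, 8 per arm, and each library came from a different horse. These 16 libraries were chosen by the arm and week in their labels. The set of 14 libraries used beside them leaves out control horses 2 and 11, which were picked for the few genes their libraries hold. All 16 horses (Equus caballus), control horses included, had osteoarthritis induced by an osteochondral fragment in 1 randomly chosen middle carpal joint, and the other joint had a sham arthroscopy. The iPAAG horses belonged to the arm assigned a 2.5% polyacrylamide hydrogel. The labels used here do not say what the control horses received, when iPAAG was given, which joint each library came from, or the age, sex or breed of the horses. Week 10 tissue was taken immediately after death, whereas the week 0 tissue of the same horses was an arthroscopic biopsy taken before the fragment was made. In both cases the tissue was digested with collagenase, strained, and spun at low speed to remove dead cells before lysis, so the libraries describe poly(A) RNA of the recovered cells.

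Synovium is the soft membrane that lines a joint. Its lining layer holds fibroblasts, which make hyaluronan and lubricin, and macrophages, and beneath it lies vascular connective tissue with further fibroblasts, immune cells and fat. In osteoarthritis the membrane can thicken, become inflamed and fibrotic, and release matrix proteases and cytokines into the joint. Polyacrylamide hydrogel is a non-degradable gel that is taken up into the synovial lining after injection, where cells grow into it. The question was whether gene expression in the synovium of iPAAG horses differed from that of control horses at week 10.

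The counts are listed by Ensembl horse gene ID, and 0 of the 19418 IDs could be matched to a symbol in the reference used here. The matrix, inflammation, foreign body and lubrication gene lists, the markers of synovial cell types, and a check of the tissue label against its markers were therefore not analysed here. Genes are described by level, by abundance class and, for 4 of them, by ID. Levels are given as CPM, counts scaled to a common library size, after adjusting each library total by its TMM factor, which corrects for differences in RNA composition. Differences are log2 fold changes of iPAAG against control horses, so a positive value is a higher level in iPAAG horses.

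Total counts at week 10 were 40149798 ± 7710800 in iPAAG and 33709953 ± 15741874 in control horses (SD, n = 8 each). Control horse 2 and control horse 11 gave libraries unlike the rest. Of the 14654 genes tested over the 16 libraries, 2996 (20.4%) had no count in control horse 2 and 3476 (23.7%) had none in control horse 11, and 1839 genes had none in either. The other 14 libraries lacked 9 to 211 of these genes, with a median of 41.5. Differences between the arms are given with these libraries (8 against 8) and without them (8 against 6). Genes detected numbered 16472 ± 578 in iPAAG horses (n = 8), 15428 ± 2353 in the 8 control horses and 16672 ± 529 in the 6 remaining control horses (SD). The difference had an exact two-sided permutation p of 0.347 with all libraries and 0.515 without the pair (adjusted p = 0.566 and 0.681 over 16 library comparisons). Control horses 2 and 11 were left out for their few genes, so the values without the pair follow in part from that choice. They serve as a description of the libraries kept.

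**Figure D1:**
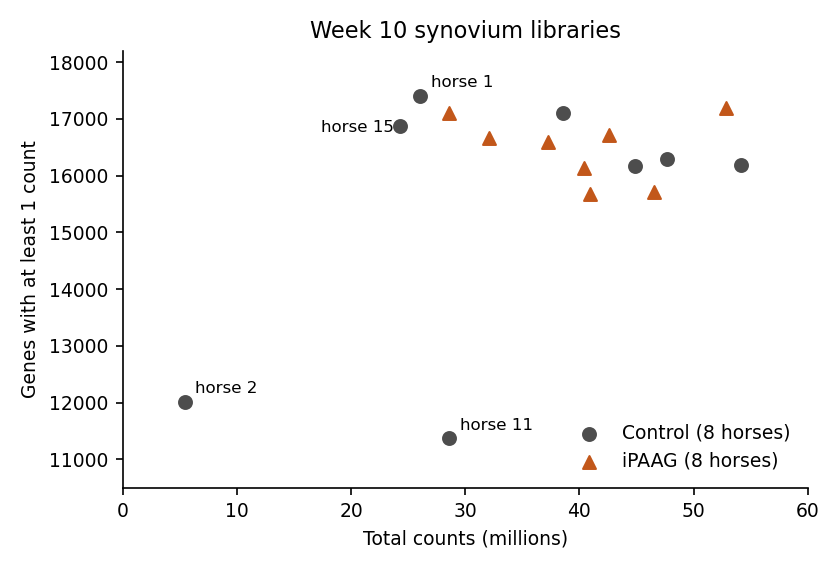
Total counts (horizontal axis) against the number of genes with at least 1 count (vertical axis) in each week 10 library, with circles for the 8 control and triangles for the 8 iPAAG horses. Control horses 2 and 11 lie at 12018 and 11373 genes, while the other 14 libraries hold 15684 to 17410 genes and both arms overlap.

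Between the arms at week 10, edgeR's quasi-likelihood test called 0 of 14654 genes (0%) at an adjusted p under 0.05 over 16 libraries, and 0 of 15049 (0%) without control horses 2 and 11. The smallest adjusted p was 0.0871 with all libraries and 0.365 without the pair. DESeq2 called 88 of 13161 genes (0.669%), 40 higher and 48 lower in iPAAG horses, and without the pair it called 109 of 14619 (0.746%), 67 higher and 42 lower. The DESeq2 lists shared 43 genes, which is 48.9% of the first and 39.4% of the second. In both arms, fewer cells of a type and less RNA per cell cannot be told apart in such bulk libraries. The p-values set the difference between the arms against the variation between libraries. With 1 library per horse at week 10, differences between horses and between library preparations are not separated.

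At an unadjusted p under 0.05, edgeR gave 1554 genes (10.6%) over 16 libraries, of which 610 (4.16%) were higher and 944 (6.44%) lower in iPAAG horses. Of these, 227 were at least 2-fold higher and 430 at least 2-fold lower, and the median size was 0.90 on the log2 scale against 0.27 over all genes tested. Without control horses 2 and 11 there were 1630 genes (10.8%), 722 (4.8%) higher and 908 (6.03%) lower, with 204 at least 2-fold higher and 330 at least 2-fold lower. The median size was then 0.79 against 0.21 over all genes. The lists shared 971 genes, 62.5% of the first and 59.6% of the second, 414 higher and 557 lower. The excess of lower genes over 16 libraries did not hold in limma-voom, which gave 986 higher and 547 lower at an unadjusted p under 0.05.

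**Figure D2:**
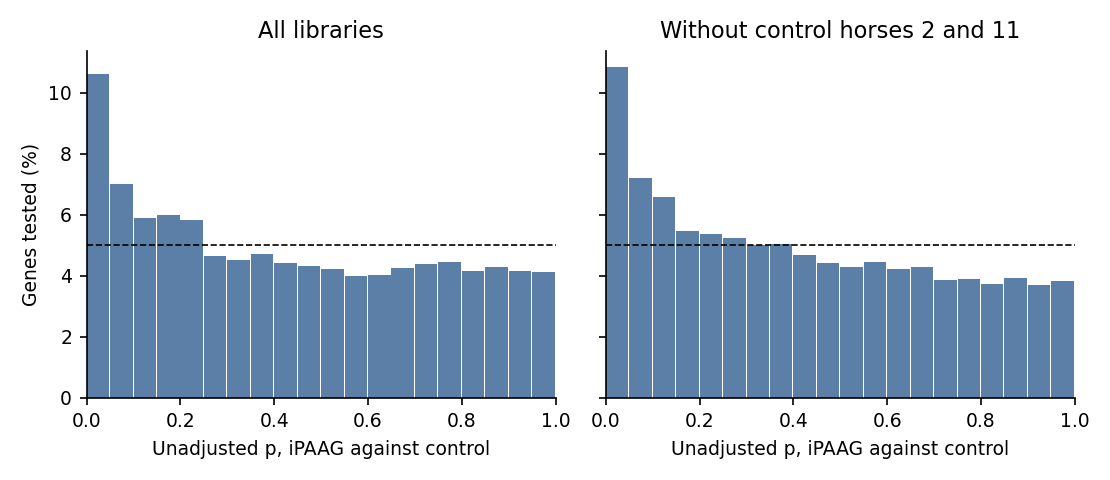
Share of genes tested (vertical axis, percent) by unadjusted edgeR p (horizontal axis, bins 0.05 wide) for the arms at week 10, over 16 libraries and without control horses 2 and 11, with a dashed line at an even share over all bins. The first bin holds 10.6% and 10.8% of genes and the last bin 4.1% and 3.8%.

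More abundant genes reached an unadjusted p under 0.05 more often. Over 16 libraries the share was 5.16% among the 3664 least abundant and 17.2% among the 3664 most abundant genes, and without the pair it was 6.43% and 14.0% among 3763 and 3762 genes. The median standard error of the log2 fold change was 0.704 in the least and 0.221 in the most abundant of these genes, and 0.513 and 0.185 without the pair. Over 16 libraries, 6978 genes (47.6%) had a 95% interval that stayed inside 2-fold on both sides, and without the pair 9621 genes (63.9%) did. For the remaining genes the interval extended past 2-fold in at least 1 direction.

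The 4 genes named here were taken by rank of p among genes whose log2 CPM averaged 2 or more, as the 2 highest-ranked in each direction without control horses 2 and 11. They were chosen for their difference at week 10, so their week 10 values are a description of the strongest cases and their week 0 values come from other libraries of the same horses. Their functions are not given here because the IDs carry no symbol.

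ENSECAG00000000658 had the lowest p in both fits. In control horses at week 10 it stood at 31.7 CPM in the lowest (horse 15), 141 CPM at the median and 293 CPM in the highest (horse 10). In iPAAG horses it stood at 369 CPM in the lowest (horse 7), 1275 CPM at the median and 3193 CPM in the highest (horse 12). The arms did not overlap, and every iPAAG horse was above every control horse, horses 2 and 11 included. Means were 1313 ± 952 CPM in iPAAG and 154 ± 79.4 CPM in control horses (SD, n = 8). Its week 10 difference was 3.10 on the log2 scale (SE 0.49, 95% interval 2.07 to 4.13, edgeR adjusted p = 0.0871) over 16 libraries and 3.11 (SE 0.57, interval 1.90 to 4.32, edgeR adjusted p = 0.365) without the pair. DESeq2 gave an adjusted p of 2.07e-07 and 1.35e-06, and the edgeR model of all 4 groups of arm and week gave 0.000394 and 0.00918. That model has no block for the horse, so it treats both weeks of a horse as independent. It also takes its spread from both weeks, and the median SD was 0.351 in control and 0.314 in iPAAG horses at week 0. At week 10 these were 0.728 and 0.366 over 16 libraries. Of the fits of 16 libraries with a single horse left out, 1 gave an edgeR adjusted p under 0.05. This was the fit without iPAAG horse 7, the lowest of its arm (0.0410), while the fit without control horse 2 gave 0.378. Among the 14 libraries, 0 such fits passed, and leaving out iPAAG horse 7 gave an edgeR adjusted p of 0.222. Over all settings the log2 fold change ranged from 2.75 to 3.29 (adjusted p 2.07e-07 to 0.378) with, and from 2.78 to 3.41 (adjusted p 1.35e-06 to 0.806) without the pair.

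The same gene did not separate the arms before induction. At week 0 ENSECAG00000000658 ranged from 43.0 to 167 CPM in control horses (median 89.3) and from 48.8 to 167 CPM in iPAAG horses (median 99.6). The log2 difference was -0.10 (SE 0.28, edgeR adjusted p = 0.943). From week 0 to week 10 the level was higher in 8 of 8 iPAAG horses, by 1.91 to 5.62 on the log2 scale with a median of 3.32. In control horses it was higher in 6 of 8, with changes from -1.41 to 1.91 and a median of 0.64. The difference of these changes between the arms, with each horse as a block, was 2.96 (SE 0.54, interval 1.83 to 4.08, edgeR adjusted p = 0.496), the lowest p of 15498 genes. Without control horses 2 and 11 it was 2.74 (SE 0.58, edgeR adjusted p = 1.00). Over all horses and without the block it was 3.19 (edgeR adjusted p = 0.0481), in a fit that treats the libraries of a horse as independent. DESeq2 with the block gave an adjusted p of 3.77e-05. The adjusted p of this difference ranged from 3.77e-05 to 1.00 over the settings run.

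ENSECAG00000010298 was a gene of low abundance that was higher in iPAAG horses. It stood at 0.353 CPM in the lowest control horse (horse 2, where it had only 2 counts), 3.76 CPM at the median and 6.25 CPM in the highest (horse 11). Without that pair the control values lay between 3.02 and 5.04 CPM. In iPAAG horses the lowest, median and highest values were 5.43 CPM (horse 7), 9.44 CPM and 17.4 CPM (horse 6). The arms overlapped through control horse 11 alone, and did not overlap without the pair. Its week 10 difference was 1.44 on the log2 scale (SE 0.40, edgeR adjusted p = 0.339) over 16 libraries and 1.40 (SE 0.26, interval 0.84 to 1.96, edgeR adjusted p = 0.365) without the pair. At week 0 the medians were 1.51 CPM in control and 3.26 CPM in iPAAG horses, a log2 difference of 0.57 (SE 0.46, edgeR adjusted p = 0.802). The difference of changes was 0.95 (SE 0.59, edgeR adjusted p = 0.982) and without the pair 0.52 (SE 0.49, edgeR adjusted p = 1.00).

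ENSECAG00000007165 was lower in iPAAG horses. Control horses ranged from 6.17 CPM (horse 9) through a median of 10.5 CPM to 16.7 CPM (horse 1), and iPAAG horses from 3.26 CPM (horse 6) through 4.28 CPM to 7.17 CPM (horse 14). The highest iPAAG horses overlapped the lowest control horses. Its week 10 difference was -1.12 on the log2 scale (SE 0.29, edgeR adjusted p = 0.339) over 16 libraries and -1.20 (SE 0.27, interval -1.78 to -0.62, edgeR adjusted p = 0.365) without the pair. At week 0 the medians were 3.47 and 3.49 CPM in control and iPAAG horses, with a log2 difference of -0.40 (SE 0.30). The level was higher at week 10 than at week 0 in 8 of 8 control horses (median change 1.10) and in 5 of 8 iPAAG horses (median 0.26). The difference of changes was -0.77 (SE 0.42, edgeR adjusted p = 0.982), and -0.85 (SE 0.42, edgeR adjusted p = 1.00) without the pair.

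ENSECAG00000035193 was also lower in iPAAG horses. Control horses ranged from 19.0 CPM (horse 16) through a median of 37.3 CPM to 48.2 CPM (horse 15), and iPAAG horses from 12.03 CPM (horse 5) through 15.8 CPM to 24.8 CPM (horse 14). The 2 lowest control horses lay within the iPAAG range. Its week 10 difference was -1.07 on the log2 scale (SE 0.22, edgeR adjusted p = 0.339) over 16 libraries and -0.94 (SE 0.22, interval -1.41 to -0.48, edgeR adjusted p = 0.365) without the pair. At week 0 the medians were 12.9 CPM in control and 12.3 CPM in iPAAG horses, a log2 difference of -0.03 (SE 0.31). The level was higher at week 10 than at week 0 in 8 of 8 control horses (median change 1.31) and in 5 of 8 iPAAG horses (median 0.46). The difference of changes was -0.83 (SE 0.37, edgeR adjusted p = 0.982), and -0.61 (SE 0.37, edgeR adjusted p = 1.00) without the pair.

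**Figure D3:**
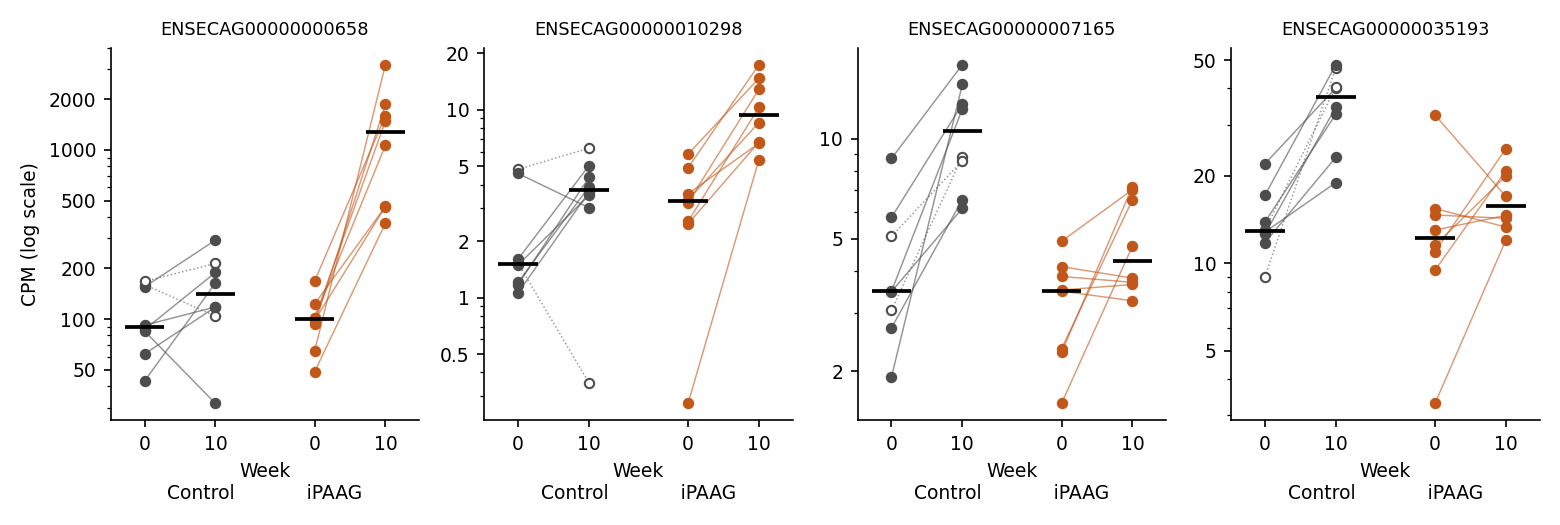
CPM on a log axis (vertical) of the 4 named genes in each library, by arm and week (horizontal), with 1 point per horse, a line joining the weeks of a horse, open points for control horses 2 and 11, and a bar at the group median. At week 10 the iPAAG points of ENSECAG00000000658 lie between 369 and 3193 CPM, above all 8 control points at 31.7 to 293 CPM, while at week 0 both arms overlap.

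DESeq2 called all 4 of these genes at week 10, among 88 of 13161 genes (0.669%) with the pair and 109 of 14619 (0.746%) without it. The 4 were chosen for a low edgeR p in these same counts, which makes the calls likely, so they add no separate support. The DESeq2 adjusted p with and without the pair was 0.0208 and 0.000964 for ENSECAG00000010298, 0.0142 and 0.0154 for ENSECAG00000007165, and 0.00802 and 0.0215 for ENSECAG00000035193. Over the settings run, the adjusted p of each of these 3 genes reached 0.616 with all libraries and 0.806 without the pair. The sign of all 4 differences at week 10 was the same under every setting run, which the choice of the genes makes likely.

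Few genes separated the arms completely. Over 16 libraries the arms did not overlap in 6 of 14654 genes (0.0409%), 4 (0.0273%) higher and 2 (0.0136%) lower in iPAAG horses. Without control horses 2 and 11 they did not overlap in 18 of 15049 genes (0.12%), 9 (0.0598%) in each direction, of which 7 were at least 2-fold higher and 4 at least 2-fold lower. With library totals in place of TMM scaling the counts were 7 and 22. Of the 6 and 17 of these genes that were also tested at week 0, 0 separated the arms there in the same direction. The share of all genes that separated the arms at week 0 was not counted. Complete separation is rare, so 0 of so few genes does not show that the arms were alike there. By sign, 4 of the 6 and 13 of the 17 lay on the same side at week 0. Of all genes tested at both weeks, 60.9% and 61.9% did.

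The 10 genes of lowest p per direction under the same abundance minimum gave the following ranges. Over 16 libraries, the log2 fold changes of the first 10 higher genes ran from 0.79 to 3.10 and those of the first 10 lower genes from -2.25 to -0.82. Without the pair they ran from 0.49 to 3.11 and from -2.11 to -0.71. At week 0 the 10 higher genes of the first list lay between -0.20 and 0.24, with 4 of 10 on the same side, and 0 of them had an unadjusted edgeR p under 0.05. The 10 lower genes of that list lay between -0.65 and 0.41, with 7 of 10 on the same side and 0 at an unadjusted p under 0.05. Without the pair, the 10 higher genes lay between -0.20 and 1.98 at week 0, with 8 of 10 on the same side. The 10 lower genes then lay between -0.75 and 0.53, with 7 of 10 on the same side, and 1 gene in each direction reached an unadjusted edgeR p under 0.05. Of all genes tested at both weeks, 60.9% lay on the same side at week 0 over 16 libraries, and 61.9% without the pair. An unadjusted edgeR p under 0.05 at week 0 was reached by 5.89% and 5.87% of them. The lists of 10 genes shared 2 higher and 4 lower genes.

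Control horses 2 and 11 shifted the size of many differences. Leaving them out moved the log2 fold change by more than 1 in 277 genes, with a median move of 1.33. All of them moved toward a higher value in iPAAG horses relative to control. This direction follows largely from the cut-off. Leaving out 2 of 8 control libraries, even ones with no count of a gene, raises its control mean only modestly. The highest week 10 library of the 277 genes was control horse 11 in 166 and control horse 2 in 103. The 1839 genes with no count in either library had a median log2 fold change of 0.38 with the pair and of -0.0014 without it. Over 16 libraries, 71 of these 1839 genes were higher and 2 lower at an unadjusted p under 0.05. Among all 14654 genes tested, 610 (4.16%) were higher and 944 (6.44%) lower. Zeros in 2 control libraries lower the control mean, so this choice of genes makes lower ones unlikely. Genes with counts in both control horse 2 and control horse 11 had medians of -0.04 with and -0.01 without the pair.

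The control arm was more spread out than the iPAAG arm. The distance of a library from the others of its arm, taken as the root mean square difference in log2 CPM from their mean, was 0.961 ± 0.460 in control and 0.547 ± 0.0740 in iPAAG horses (SD, n = 8; exact two-sided permutation p = 0.000311, adjusted p = 0.00497 over 16 library comparisons). Control horses 2 and 11 lay at 1.63 and 1.77. Without them the distances were 0.638 ± 0.113 and 0.549 ± 0.0735 (exact permutation p = 0.101, adjusted p = 0.399). Each distance used the other libraries of its own arm, so control horses 2 and 11 entered the distances of all other control horses. The permutation moved finished distances between the arms without computing them again. Its p-values therefore treat linked values as independent and serve as a description only. Gene by gene, the median SD between horses on log2 CPM was 0.728 in control against 0.366 in iPAAG horses with the pair, and 0.420 against 0.369 without it. The corresponding values at week 0 were 0.351 and 0.314.

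Among the remaining 14 libraries the main axis of variation ran across both arms. The first principal component held 42.7% of the variance. Control horses 15 and 1 lay at its upper end (92.3 and 81.7), followed by control horse 13 (34.5), whereas control horses 16, 9 and 10 lay at -34.4, -25.9 and -14.6. The iPAAG horses spanned -67.1 (horse 6) to 15.5 (horse 3). Thus 3 control horses lay above the iPAAG range and 3 within it, and the difference in mean position did not pass the threshold (exact permutation p = 0.125, adjusted p = 0.399). The second component of the 14 libraries held 13.7% (exact permutation p = 0.0686, adjusted p = 0.366). Over all 16 libraries the first component held 35.1% (exact permutation p = 0.0236, adjusted p = 0.189). On it, control horses 2 and 11 lay at 169.9 and 80.1.

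Control horse 15 and iPAAG horse 6, at the ends of that axis, most often held the extreme value of their arm among genes at an unadjusted p under 0.05. Without control horses 2 and 11, control horse 15 was the highest control horse in 506 of the 908 genes lower in iPAAG horses (55.7%), against 20.6% of all genes tested. It was the lowest control horse in 452 of the 722 genes higher in iPAAG horses (62.6%), against 21.8% of all genes. Control horse 1, next on that axis, was the highest control horse in 245 of the 908 genes (27.0%, against 18.0%). It was the lowest in only 83 of the 722 (11.5%, against 19.0%). In the iPAAG arm, horse 6 was the lowest in 531 of the 908 genes (58.5%, against 17.3%) and the highest in 219 of the 722 (30.3%, against 16.8%). There iPAAG horses 17 and 12 followed as the highest in 147 and 146 of the 722 (20.4% and 20.2%, against 10.7% and 8.6%). Control horse 16 was at the far end in 19 of the 908 (2.09%, against 17.3% of all genes) and 20 of the 722 (2.77%, against 18.3%). The genes were chosen from these same libraries, so the shares are a description, with no test.

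**Figure D4:**
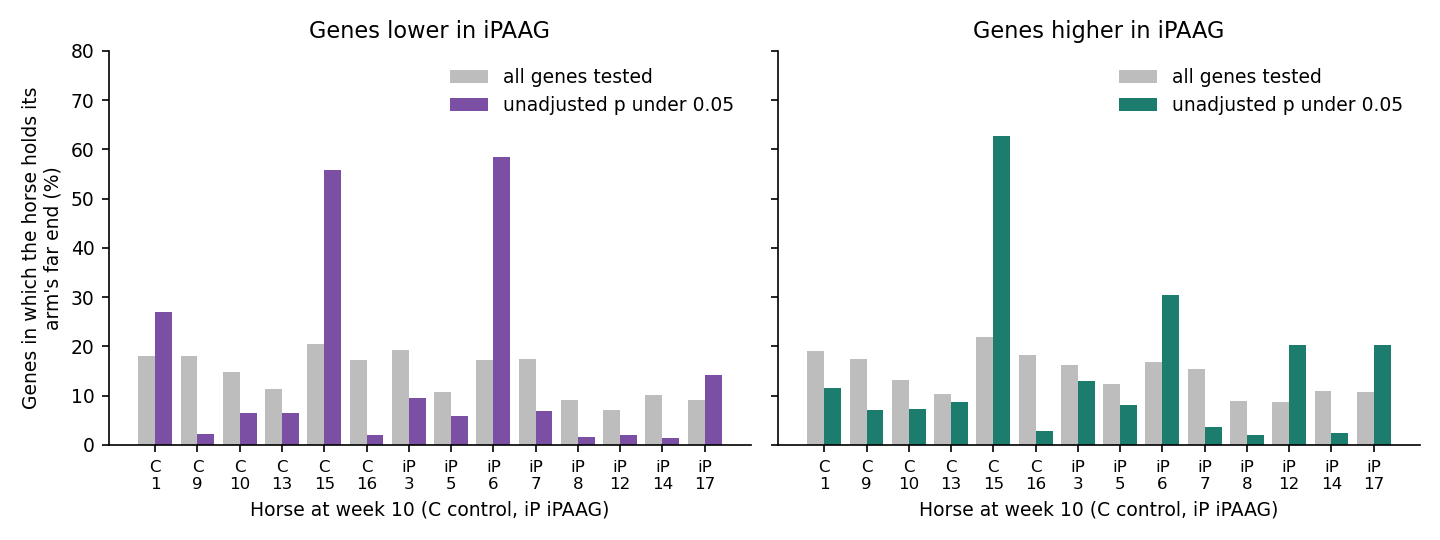
Share of genes (vertical axis, percent) in which each of the 14 horses (horizontal axis) held the value of its arm farthest from the other arm, for genes lower (left) and higher (right) in iPAAG horses at an unadjusted p under 0.05, beside all genes tested. Control horse 15 holds 55.7% and 62.6%, and iPAAG horse 6 holds 58.5% and 30.3%.

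The number of genes at an unadjusted p under 0.05 also depended on single horses. Refitted without control horse 15 as well as 2 and 11, the count was 892 (463 higher, 429 lower) in place of 1630, and without control horse 1 it was 1017 (509 higher, 508 lower). Each refit tested its own set of genes, and how many genes it shared with the 1630 was not counted. The count was 1221 without iPAAG horse 6 and 1162 without iPAAG horse 17, and it was 2328 without control horse 16. In each of these fits edgeR called 0 genes. Without control horse 15 the log2 fold changes of the named genes were 2.91 for ENSECAG00000000658, 1.34 for ENSECAG00000010298, -1.18 for ENSECAG00000007165 and -0.80 for ENSECAG00000035193 (edgeR adjusted p = 0.806 for each).

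**Figure D5:**
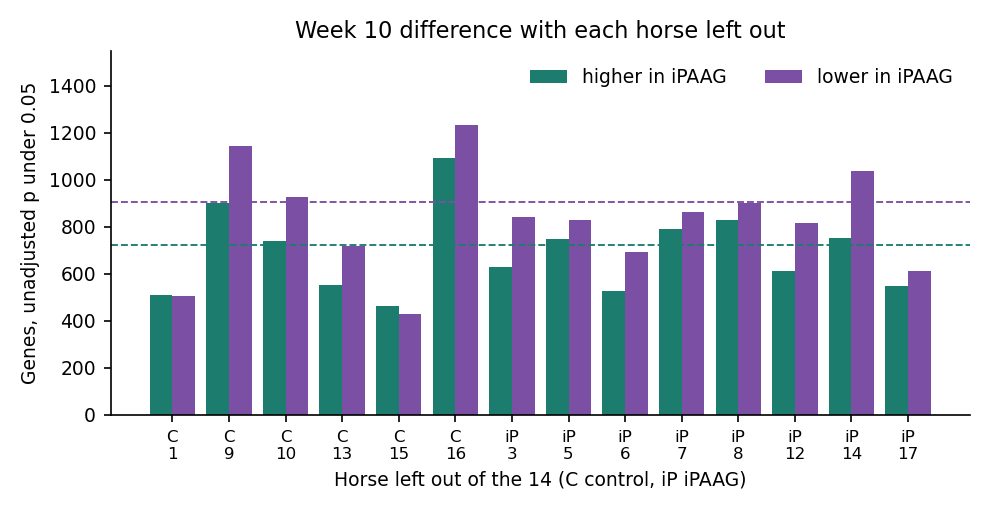
Number of genes at an unadjusted edgeR p under 0.05 (vertical axis), higher or lower in iPAAG horses, when each of the 14 horses (horizontal axis) is left out. Dashed lines mark the 722 higher and 908 lower genes with all 14 libraries, and the counts fall to 463 and 429 without control horse 15.

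At week 0, before induction and in other libraries of the same horses, edgeR called 0 of 14615 genes between the arms (0%), the lowest adjusted p being 0.794. At an unadjusted p under 0.05 there were 853 (5.84%), 335 (2.29%) higher and 518 (3.54%) lower in iPAAG horses. DESeq2 called 2 of 18777 (0.0107%). Genes at an unadjusted p under 0.05 at week 10 were examined there by sign. Over 16 libraries, 1121 of 1533 (73.1%) had the same sign at week 0, against 60.9% of all 14346 genes tested at both weeks. Without control horses 2 and 11 at week 10 it was 1159 of 1597 (72.6%), against 61.9%. The sizes differed, since the median log2 difference in the week 10 direction was 0.13 at week 0 and 0.89 at week 10, or 0.12 and 0.77 without the pair. The share with an unadjusted p under 0.05 at week 0 was 4.89% of these genes, against 5.89% of all, and without the pair 4.57% against 5.87%.

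The change from week 0 to week 10 was also compared between the arms, with the horse as a block. In edgeR 0 of 15498 genes (0%) differed over 32 libraries, the lowest adjusted p being 0.496. At an unadjusted p under 0.05 there were 617 (3.98%), 404 (2.61%) with a higher and 213 (1.37%) with a lower change in iPAAG horses. Without both libraries of control horses 2 and 11, 0 of 15731 genes (0%) differed and 714 (4.54%) had an unadjusted p under 0.05, 340 (2.16%) with a higher and 374 (2.38%) with a lower change. The median over all genes was 0.12 on the log2 scale with the pair and -0.0049 without it. DESeq2 with the block called 11 and 12 genes.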

How the data were processed

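Poly(A) RNA libraries were made with the Tecan/Nugen Universal Plus mRNA-seq kit, per the labels' protocols. The authors deposited whole-number counts per gene, with no normalization visible in the values. STAR 2.7.10b, limma 3.62.2 and the build EquCab3.0 are named in the submitters' processing notes, without their roles, while for counter, annotation and strand the sources used here give nothing. Overlapping genes and genes with close copies are therefore uncertain. In 6 genes, 33 values are written to 3 significant digits.

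Counts were tested with edgeR 4.0.16 (R 4.3.3) by its quasi-likelihood test with TMM factors, its low-count filter by group, and Benjamini-Hochberg adjustment over all genes tested, at a threshold of 0.05. All tests were two-sided. The SE is the absolute log2 fold change over the square root of F, and intervals are 95%. Spread and change per horse use log2(CPM + 0.5). The first 2 genes higher and first 2 lower by p, at an average log2 CPM of 2 or more and without control horses 2 and 11, were named. Alternatives were DESeq2 1.42.0, limma-voom and library quality weights (limma 3.58.1), other scaling factors and filters, a model of all 4 groups, and leaving out each horse. The tests were tried on simulated counts. Principal components, the horse holding the extreme value and the code check below were added after seeing the data. The comparison, the libraries left out and the gene lists were chosen with earlier results of these data known.

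The pairing of weeks rests on the horse codes in the titles. As a check, 6 genes that split the horses at week 0 by a gap of over 8-fold were read at week 10, where 93 of 96 calls (96.9%) matched the horse's own code, against 56.7% between different horses. Control horse 2 matched in 6 of 6 and control horse 11 in 5 of 6, and a horse's own code was the single best match in 6 of 16 horses and best or tied in 15. With 13 genes split by a gap of over 2.5 on the log2 scale, 194 of 208 calls (93.3%) matched, against 57.9% between different horses. Control horse 2 then matched in 12 of 13 and control horse 11 in 9 of 13, the lowest count of any horse, and the own code was the single best match in 13 of 16.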

Additional observations from a re-analysis of the deposited data

Results flagged for a closer look

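In groups of 4 to 10 libraries, the gap between the highest or lowest value and its nearest neighbour was compared with the range of the group. Of 32 groups examined, 1 was marked, and for normally distributed values chance marks about 1 in 20 groups, or 1.6 of 32. That rate need not hold for CPM. The rule can also miss 2 libraries that lie far out together. Control horses 2 and 11, at 12018 and 11373 genes detected, were not marked. In iPAAG horse 3 at week 0, ENSECAG00000035193 had 32.3 CPM, above the 3.30 to 15.4 CPM of the other 7 iPAAG horses at that week. The value enters the week 0 difference and the difference of changes of this gene, and not its week 10 difference.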

How the results depend on the processing

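At a threshold of 0.05 on the adjusted p, the count of 0 genes between the arms at week 10 became 88 with DESeq2 and 2 in the model of all 4 groups, and lay between 0 and 1 with single horses left out. Without control horses 2 and 11 it became 109 with DESeq2 and 1 in the model of all 4 groups, and was 0 when each further horse was left out. The model of all 4 groups has no block for the horse and takes its spread from both weeks. At week 0 the count was 2 with DESeq2. For the difference of changes, removing the replicate block that pairs the weeks of a horse gave 1 gene, and DESeq2 with the block gave 11, or 12 without control horses 2 and 11. That difference was 0 genes with and without the block when control horses 2 and 11 were left out. The comparisons within a week have no blocked fit, since each horse gives 1 library there. The iPAAG minus control difference in genes detected was -200.2 without control horses 2 and 11 in place of 1044, that in the share of counts in the 10 highest genes was 1.23 in place of -1.34 percentage points, and that in the distance within the arm was -0.0888 in place of -0.415 (exact permutation adjusted p = 0.399). These settings differ by the libraries left out, and for the other moves the cause was not tested.

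Counts of genes at an unadjusted p under 0.05 moved by over 1.5 times in few settings. The 1554 of week 10 became 2469 in the model of all 4 groups, and the 1630 of the 14 libraries became 1039 under quality weights (545 higher, 494 lower), 1017 without control horse 1 and 892 without control horse 15. The 853 of week 0 became 1902 without iPAAG horse 7, 1517 under quality weights, 1312 and 564 without control horses 13 and 9, 1343 with no filter and 201 in the model of all 4 groups. The 617 of the difference of changes became 402 and 397 without iPAAG horses 3 and 17, 1003 and 926 without control horses 9 and 16, and 1323 with DESeq2. The 714 became 454 without iPAAG horse 3, 452 without control horse 10 and 1177 with DESeq2. RLE and upper-quartile factors left the median log2 difference of all genes at week 10 between -0.04 and -0.02. Standard errors were largest in the least abundant genes. Gene lists were not run because 0 IDs had a symbol.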
